A study of Mus musculus with 36 samples.

Results

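The genes described here encode the constitutive proteasome and its regulators, and were taken as all gene symbols of the count tables that begin with Psma to Psmg followed by a number, without the 3 immunoproteasome subunits Psmb8, Psmb9 and Psmb10. The rule returned 47 of 24421 symbols. Of these, Psme1 and Psme2 are described apart, because interferon also induces them, and the other 45 are called the core genes below. Among the 45 are 8 alpha-ring and 8 beta-ring genes of the 20S core, 6 ATPases and 11 non-ATPase subunits of the 19S cap, 3 chaperones of cap assembly, 4 chaperones of core assembly, 3 further activators and the inhibitor Psmf1. The remaining symbol, Psmc3ip, encodes a recombination factor that matched the rule by its name only.

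The libraries were made from bulk RNA of liver cells of C57BL/6 mice. Hepatic stellate cells (HSC) are the vitamin A-storing pericytes of the sinusoid, liver sinusoidal endothelial cells (LSEC) form its wall, and hepatocytes are the parenchymal cells behind it. For each cell type there were 4 WT libraries, which the series design calls Pbs mice, 4 libraries from 12 h and 4 from 36 h after diphtheria toxin (DT), 36 libraries in 9 groups. The labels give every group the same strain and name no genotype, and in the study the toxin served to deplete Kupffer cells, the macrophages that live in the sinusoids. None of the groups received toxin and kept its Kupffer cells, so toxin, depletion and any genotype behind it cannot be told apart. The labels also do not say whether each library is a separate mouse, and p-values therefore measure the spread between libraries.

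Each library held between 25404719 and 31734631 gene counts. The 10 stellate markers summed to 40783 to 84805 CPM (counts per 1000000 on scaled library sizes) in the HSC libraries, the 10 LSEC markers to 24126 to 34893 CPM in the LSEC libraries and the 10 hepatocyte markers to 54726 to 86977 CPM in the hepatocyte libraries. Replicate 3 at 12 h and replicate 4 at 36 h stood apart in both HSC and LSEC, with the highest core gene sums of their groups, and the counts at these times are also given without them. The 12 hepatocyte libraries fell on 2 sides of 100 CPM of the nuclear RNA Malat1, which is treated with the hepatocyte results. In bulk RNA, fewer cells of a type and less RNA per cell cannot be told apart.

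The proteasome degrades proteins tagged with ubiquitin. Its 20S core is a barrel of alpha and beta rings in which Psmb5, Psmb6 and Psmb7 carry the chymotrypsin-like, caspase-like and trypsin-like sites, and its 19S cap binds, unfolds and deubiquitinates the substrate. Cells raise subunit genes together when proteasome capacity falls short, through the transcription factor Nfe2l1 and small Maf partners acting at antioxidant response elements in subunit promoters. Psme1 and Psme2 form PA28 alpha/beta, a cap without ATPase activity that opens the core and favours peptides for antigen presentation.

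Because the core genes moved together at 12 h, their promoters are shown for the antioxidant response core TGACNNNGC and the ETS-family core CCGGAA, searched on both strands in the 250 bases before each RefSeq start. Windows were found for 39 of 47 genes, and 4 are printed, from build GRCm38.p6 and read 5′ to 3′ on the gene's strand, with the matches in capitals. Psmb5 (chr14:54617996-54618245, minus strand) has the antioxidant response core 47 to 39 bases before its start. Psmd12 (chr11:107479278-107479527, plus strand) has that core on the opposite strand 247 to 239 bases before and the ETS core 16 to 11 bases before. Psme1 (chr14:55578244-55578493, plus strand) and Psme2 (chr14:55591102-55591351, minus strand) contain no match to either in this window.
Psmb5: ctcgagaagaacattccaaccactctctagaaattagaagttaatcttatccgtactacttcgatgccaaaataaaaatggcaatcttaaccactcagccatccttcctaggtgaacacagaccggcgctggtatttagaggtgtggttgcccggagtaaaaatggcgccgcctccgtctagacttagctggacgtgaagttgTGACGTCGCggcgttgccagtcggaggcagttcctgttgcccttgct
Psmd12: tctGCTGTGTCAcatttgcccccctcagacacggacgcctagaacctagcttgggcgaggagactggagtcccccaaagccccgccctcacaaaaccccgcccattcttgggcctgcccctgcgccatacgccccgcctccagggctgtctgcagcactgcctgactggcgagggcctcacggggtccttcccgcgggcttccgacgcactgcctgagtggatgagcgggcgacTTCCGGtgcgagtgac
Psme1: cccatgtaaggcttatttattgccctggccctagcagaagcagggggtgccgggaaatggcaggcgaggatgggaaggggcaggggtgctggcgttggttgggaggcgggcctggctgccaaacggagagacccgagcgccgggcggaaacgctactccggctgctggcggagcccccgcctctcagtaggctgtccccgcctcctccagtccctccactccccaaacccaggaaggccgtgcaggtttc
Psme2: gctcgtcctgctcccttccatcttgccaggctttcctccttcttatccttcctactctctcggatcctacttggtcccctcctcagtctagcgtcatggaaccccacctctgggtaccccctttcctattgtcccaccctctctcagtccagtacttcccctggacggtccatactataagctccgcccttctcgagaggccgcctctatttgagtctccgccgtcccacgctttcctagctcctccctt

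The antioxidant response core occurred in 5 of the 39 genes with a window (12.8%), Psmb5, Psmb6, Psmc6, Psmd12 and Psmd9, against 11.5% of all 27025 genes with a window. A gene with several windows was counted once, as a match if any of them matched. The ETS core occurred in 18 (46.2%) against 13.6% of all. CCAAT, the box bound by NF-Y, occurred in 14 (35.9%) against 37.5%. The interferon-type pair of GAAA motifs spaced by 2 bases was found in 3 genes (7.69% against 3.46%), Psmb3, Psmd4 and Psmd9, and the STAT-type element TTCNNNGAA in 1, Psmg1 (2.56% against 8.13%). A match is a string of letters and not a measured site, and the windows end at the start of the gene.

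In WT libraries the core genes summed to 2651 to 2956 CPM in HSC, 2728 to 3069 in LSEC and 5000.2 to 7158 in hepatocytes with TMM scaling. On library totals the ranges were 3019.8 to 3382, 3339 to 3861 and 3216 to 5361 CPM, so that the hepatocyte range overlapped both others. Levels of different genes are compared here per length, as CPM per kilobase of merged exons on the scaling of the 12 WT libraries. Merged exons can be longer than any single transcript, which lowers the value, so ranks between genes depend on this length. In HSC Psmb1, with 3427 bases, had 98.6 CPM and 28.8 CPM per kilobase. Psmb6, with 798 bases, had 95.1 CPM and 119 CPM per kilobase. The median over 7 alpha-ring genes was 58.5 CPM per kilobase in HSC, 57.3 in LSEC and 141 in hepatocytes, leaving out Psma8. Over 7 beta-ring genes the medians were 63.9, 57.4 and 156 CPM per kilobase, leaving out Psmb11, and Psmb6 was the highest in HSC and hepatocytes, at 119 ± 12.0 and 272 ± 78.1 (SD, n = 4). The cap genes stood lower, with medians of 51.4, 53.4 and 86.2 CPM per kilobase for the ATPases and 37.7, 40.1 and 83.1 for the non-ATPase subunits.

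Assembly factors were much less abundant than the subunits they place. The core-assembly chaperones Psmg1 to Psmg4 had medians of 12.2 CPM per kilobase in HSC, 12.1 in LSEC and 18.6 in hepatocytes, and the cap-assembly chaperones Psmd5, Psmd9 and Psmd10 had 10.7, 12.6 and 18.1. Psmf1, which encodes the inhibitor PI31, stood at 8.99, 7.99 and 12.6 CPM per kilobase. Among the activators, Psme1 stood at 73.8 ± 5.37, 77.4 ± 3.76 and 107 ± 16.5 CPM per kilobase and Psme2 at 76.1 ± 9.43, 70.2 ± 6.57 and 139 ± 36.2, while Psme4, for the nuclear activator PA200, stood at 3.94, 4.71 and 15.2. Psmb11, the thymic beta subunit, was under 1 CPM in all 9 groups and passed no count filter, and Psme2b, a near copy of Psme2, had about 1 CPM or less in each WT group. Psma8, the testis-type alpha subunit, stood at 5.48 ± 1.36 CPM in HSC WT, 5.90 ± 0.835 in LSEC WT and 0.860 ± 0.242 in hepatocyte WT on scaling within a cell type.

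**Figure D1:**
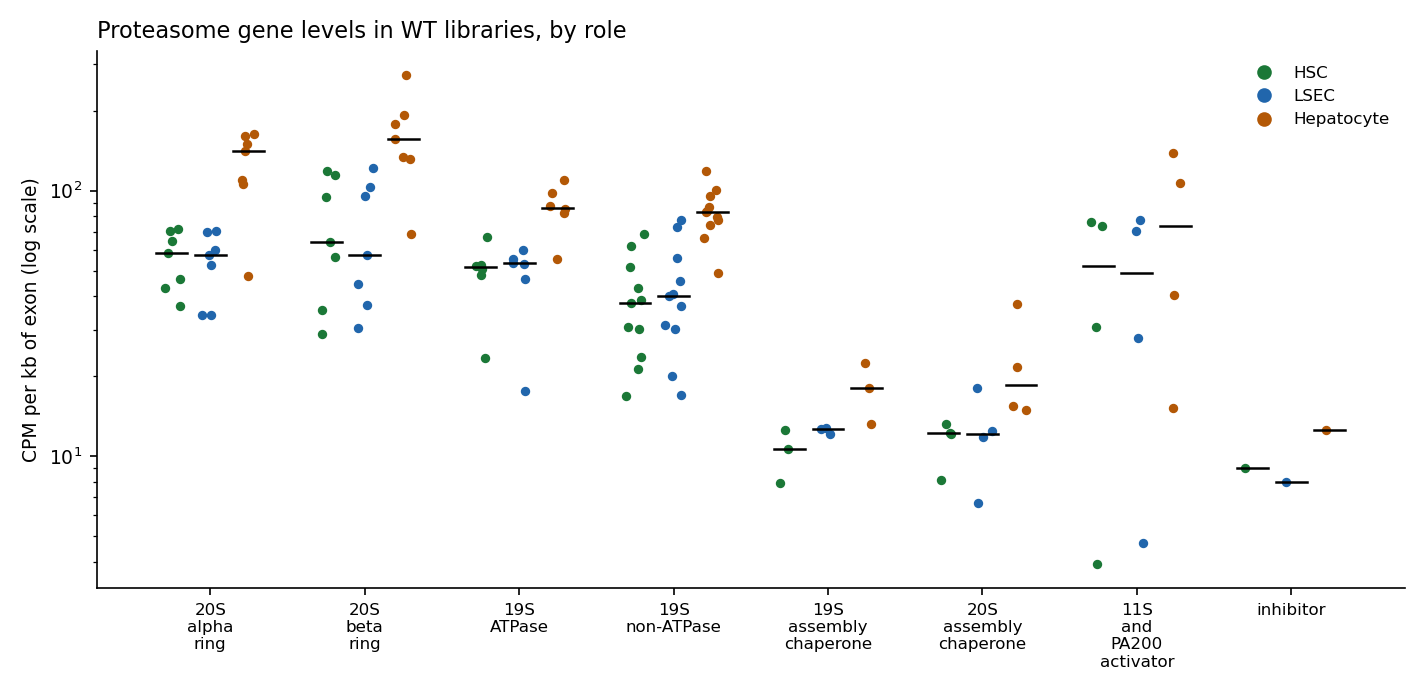
Level of each proteasome gene in WT libraries by role and cell type, as CPM per kilobase of exon on a log axis; each point is the mean of 4 libraries and each bar the median of a role. Psma8, Psmb11, Psme2b and Psmc3ip are not drawn. Hepatocyte points lie highest for both rings, with Psmb6 at 272, and the assembly chaperones, the inhibitor and Psme4 (3.94 in HSC) lie lowest.

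Between WT HSC and WT LSEC few core genes were called in the fit that also held the hepatocyte WT libraries. With edgeR's quasi-likelihood test and Benjamini-Hochberg adjustment over all genes, 6 of 44 tested were called at an adjusted p under 0.05, against 56.8% of all 13389 genes. Psmd3, a scaffold of the cap lid, stood in HSC at 111, 116, 102 and 113 CPM and in LSEC at 175, 162, 161 and 167 CPM. The HSC libraries all lay below the LSEC libraries (log2 difference -0.59 ± 0.11 SE, adjusted p = 0.000328). Psmd10, Psmd8, Psmg2 and Psmb2 were also lower in HSC, by log2 differences of -0.67, -0.38, -0.44 and -0.37, and Psmc6 was higher by 0.41. Psme1 and Psme2 differed by log2 values of -0.07 and 0.12, neither of them called (adjusted p = 0.642 and 0.583). In the fit with hepatocytes DESeq2 called 9 core genes, and leaving out 1 library at a time gave 4 to 5 with edgeR. A fit of these 8 libraries alone called 16 core genes, so the count depends on which libraries share the fit. The 56.8% of all genes holds for the fit with hepatocytes only and is no measure for the 16.

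Both sinusoidal cell types stood below hepatocytes for most core genes. With TMM, 38 of 44 in HSC were lower and 3 higher, against 35.9% of all genes lower, 43.2% higher and 79.1% called, and in LSEC 39 were lower and 3 higher, against 36.3% lower, 42.7% higher and 79% called. The median log2 difference of the core genes was -1.05 and -0.98, where that of all genes was 0.18 in both. The 3 higher genes were Psma8, Psmc3ip and Psme2b, at log2 differences of 1.98, 2.49 and 1.82 in HSC, all at low counts. The comparison depends on the scaling, since TMM factors ran from 0.643 to 0.771 in hepatocytes and from 1.09 to 1.29 in the other WT libraries. On library totals alone the calls were 22 lower and 6 higher for HSC and 13 lower and 8 higher for LSEC, and the median of all genes moved to 0.86 and 1.01. Of the 44 core genes, 10 and 16 then had a log2 difference above 0, against 3 and 4 with TMM. The shares of all genes called that are given above hold for TMM only and are no measure for the calls on totals. Relative to the median of all genes the core genes stood at -1.23 in HSC and -1.17 in LSEC with TMM and at -1.24 and -1.18 on totals. A change of scaling moves all genes of a comparison nearly alike, so these near-equal values are no check on the scaling.

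Psmd11, a subunit of the cap lid, had the largest difference among the genes lower than in hepatocytes. Its WT libraries read 46.8, 50.2, 50.5 and 52.3 CPM in HSC, 51.2, 48.1, 49.7 and 52.7 in LSEC and 235, 245, 245 and 271 in hepatocytes. The hepatocyte libraries lay far above the others (log2 difference -2.32 ± 0.10, adjusted p = 5.09e-11 for HSC and -2.30 ± 0.10, adjusted p = 4.69e-11 for LSEC). Psme4 differed by -1.94 in HSC and -1.69 in LSEC, the catalytic Psmb7 by -1.90 and -1.83, the lid subunit Psmd8 by -1.28 and -0.89, and the chaperone Psmg1 by -1.63 and -1.67. The catalytic Psmb5 and Psmb6 differed by -1.49 and -1.19 in HSC and by -1.64 and -1.39 in LSEC, and Psmd14, the cap deubiquitinase, by -1.71 and -1.31.

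For the activators Psme1 and Psme3 and the inhibitor the direction was set by the scaling. Psme1 was lower in HSC and LSEC than in hepatocytes by -0.53 and -0.46 with TMM but stood at 0.14 and 0.35 on library totals. Psme3, for the nuclear activator PA28 gamma, stood at -0.41 and -0.54 against 0.27 and 0.29, and Psmf1 at -0.49 and -0.66 against 0.21 and 0.18. Psme2 differed by -0.87 and -0.99 with TMM and was not called on totals (-0.21 and -0.18, adjusted p = 0.337 and 0.41).

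At 12 h after the toxin most core genes had risen in HSC. The sum of the 45 was 3023, 3247, 3330 and 3355 CPM in WT and 4401, 4053, 6154 and 4421 CPM at 12 h, or 3239 ± 151 and 4757 ± 946 (SD, n = 4). Every 12 h library lay above every WT library, replicate 3 furthest. In edgeR's test 30 of 44 core genes were higher and none lower, against 17% of all 12676 genes higher, 15.1% lower and 32% called in all, with a median log2 fold of 0.53 where that of all genes was 0.01. Their groups did not overlap for 30 of 44, against 15.6% of all genes that lay wholly higher. With the 2 libraries that stand apart (12 h replicate 3, 36 h replicate 4) left out, the count was 26 and the median 0.39.

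**Figure D2:**
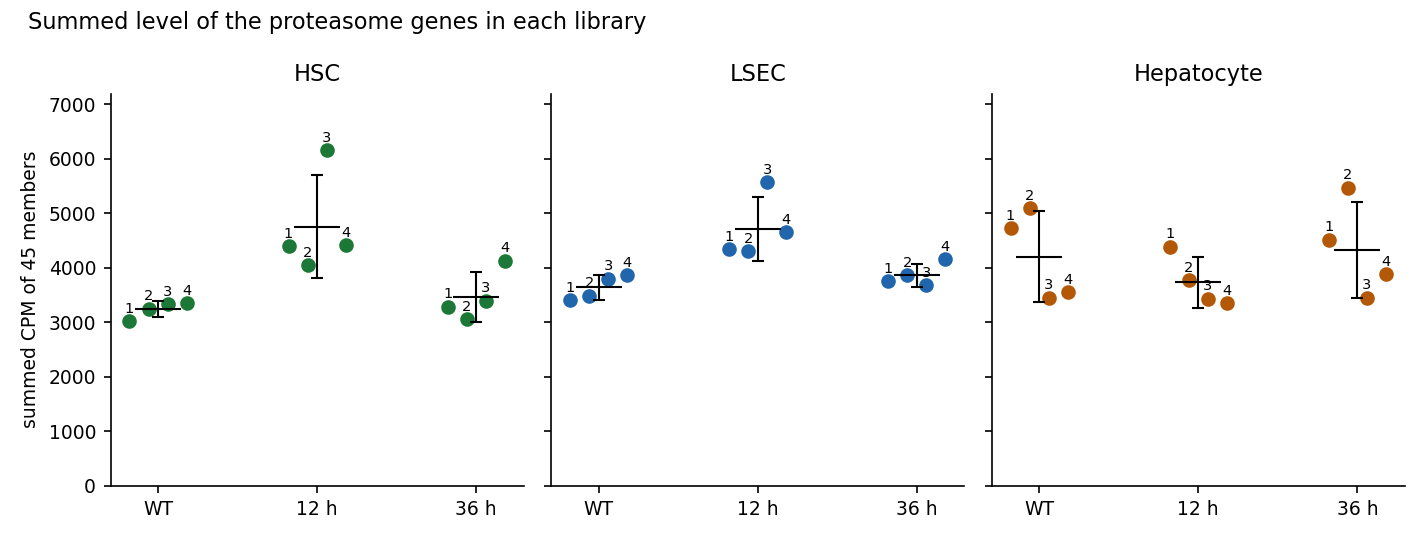
Summed CPM of the 45 core genes in each library (points) with group means ± SD, by cell type and time, on scaling within a cell type. All 12 h libraries of HSC (4053 to 6154) and LSEC (4299.8 to 5569) lie above all WT libraries of the same cell type, and the hepatocyte groups overlap.

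The rise covered the core and the cap. Of the alpha ring 7 of 8 rose, all but Psma8, and of the beta ring 6 of 7. Of the ATPases 4 of 6 rose and of the non-ATPase subunits 10 of 11. The smaller groups had fewer calls, with 1 of 3 cap-assembly chaperones (Psmd10, gankyrin), 2 of 4 core-assembly chaperones (Psmg3 and Psmg4) and 0 of 3 activators by edgeR (1 at an unadjusted p under 0.05 and 1 by DESeq2, Psme3). The other 14 of 44 had log2 folds from -0.15 (Psmg2) to 0.72 (Psmc3ip).

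Psmc4, an ATPase of the cap base, read 76.2, 82.1, 78.0 and 80.7 CPM in WT and 135, 125, 207 and 124 CPM at 12 h. The groups were wide apart and replicate 3 again the highest (log2 fold 0.90 ± 0.16 SE, adjusted p = 0.000969). Psma4, an alpha-ring subunit, read 60.6, 63.4, 65.4 and 57.3 CPM in WT and 102, 91.3, 122 and 90.7 CPM at 12 h, again without overlap (0.72 ± 0.13, adjusted p = 0.001). Psmb5, the chymotrypsin-like site, read 53.2, 66.8, 67.6 and 74.0 CPM in WT and 85.1, 87.4, 166 and 119 CPM at 12 h (0.81 ± 0.20, adjusted p = 0.00715). The other catalytic genes rose as well, Psmb6 from 108 ± 10.6 to 172 ± 53.1 CPM and Psmb7 from 46.8 ± 3.46 to 73.5 ± 16.7 CPM. Psmd14 read 37.5, 40.3, 47.0 and 41.1 CPM in WT and 77.3, 64.0, 112 and 65.0 CPM at 12 h (0.94 ± 0.19, adjusted p = 0.00257). Without the libraries that stand apart these 6 genes were still called, with log2 folds of 0.70 for Psmc4, 0.63 for Psma4, 0.58 for Psmb5, 0.46 for Psmb6, 0.49 for Psmb7 and 0.74 for Psmd14.

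Several regulators did not pass the test. Psme3 read 92.8 ± 5.13 CPM in WT and 116 ± 20.7 at 12 h, with overlapping groups (0.32 ± 0.13, adjusted p = 0.0677). Psme4 read 29.2 ± 1.39 and 31.8 ± 4.35 CPM (0.12, adjusted p = 0.432) and Psmf1 40.9 ± 1.57 and 42.0 ± 7.06 CPM (0.04, adjusted p = 0.831). Psmg1, which starts the alpha ring with Psmg2, read 14.5 ± 1.998 and 16.3 ± 2.77 CPM (0.17, adjusted p = 0.426). Psmg4, a small core-assembly chaperone, had the largest fold of the core genes, with 4.31, 5.74, 4.82 and 5.75 CPM in WT and 9.63, 9.37, 15.2 and 9.18 CPM at 12 h (1.07 ± 0.20, adjusted p = 0.00146). It was chosen here after its values were seen.

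Psme1 and Psme2 rose in HSC at 12 h, with larger folds than any core gene; the difference in fold between genes was not tested. Psme2 read 68.9, 89.4, 89.5 and 90.4 CPM in WT and 249, 224, 305 and 219.6 CPM at 12 h. Every 12 h library lay above 200 CPM and every WT library below 100 (log2 fold 1.56 ± 0.18 SE, 2.95-fold, adjusted p = 6.86e-05). Psme1 read 85.1, 100.1, 91.3 and 97.4 CPM in WT and 208, 197, 351 and 239 CPM at 12 h. Its groups did not overlap either (1.41 ± 0.19, 2.66-fold, adjusted p = 0.000189). Leaving out the libraries that stand apart gave log2 folds of 1.46 and 1.21. The genes lie close together on chromosome 14, Psme1 at chr14:55578494-55581527 and Psme2 at chr14:55587440-55591101. Reads shared by Psme2 and Psme2b could be assigned to either, and Psme2b had at most 2.06 CPM in HSC libraries at 12 h.

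**Figure D3:**
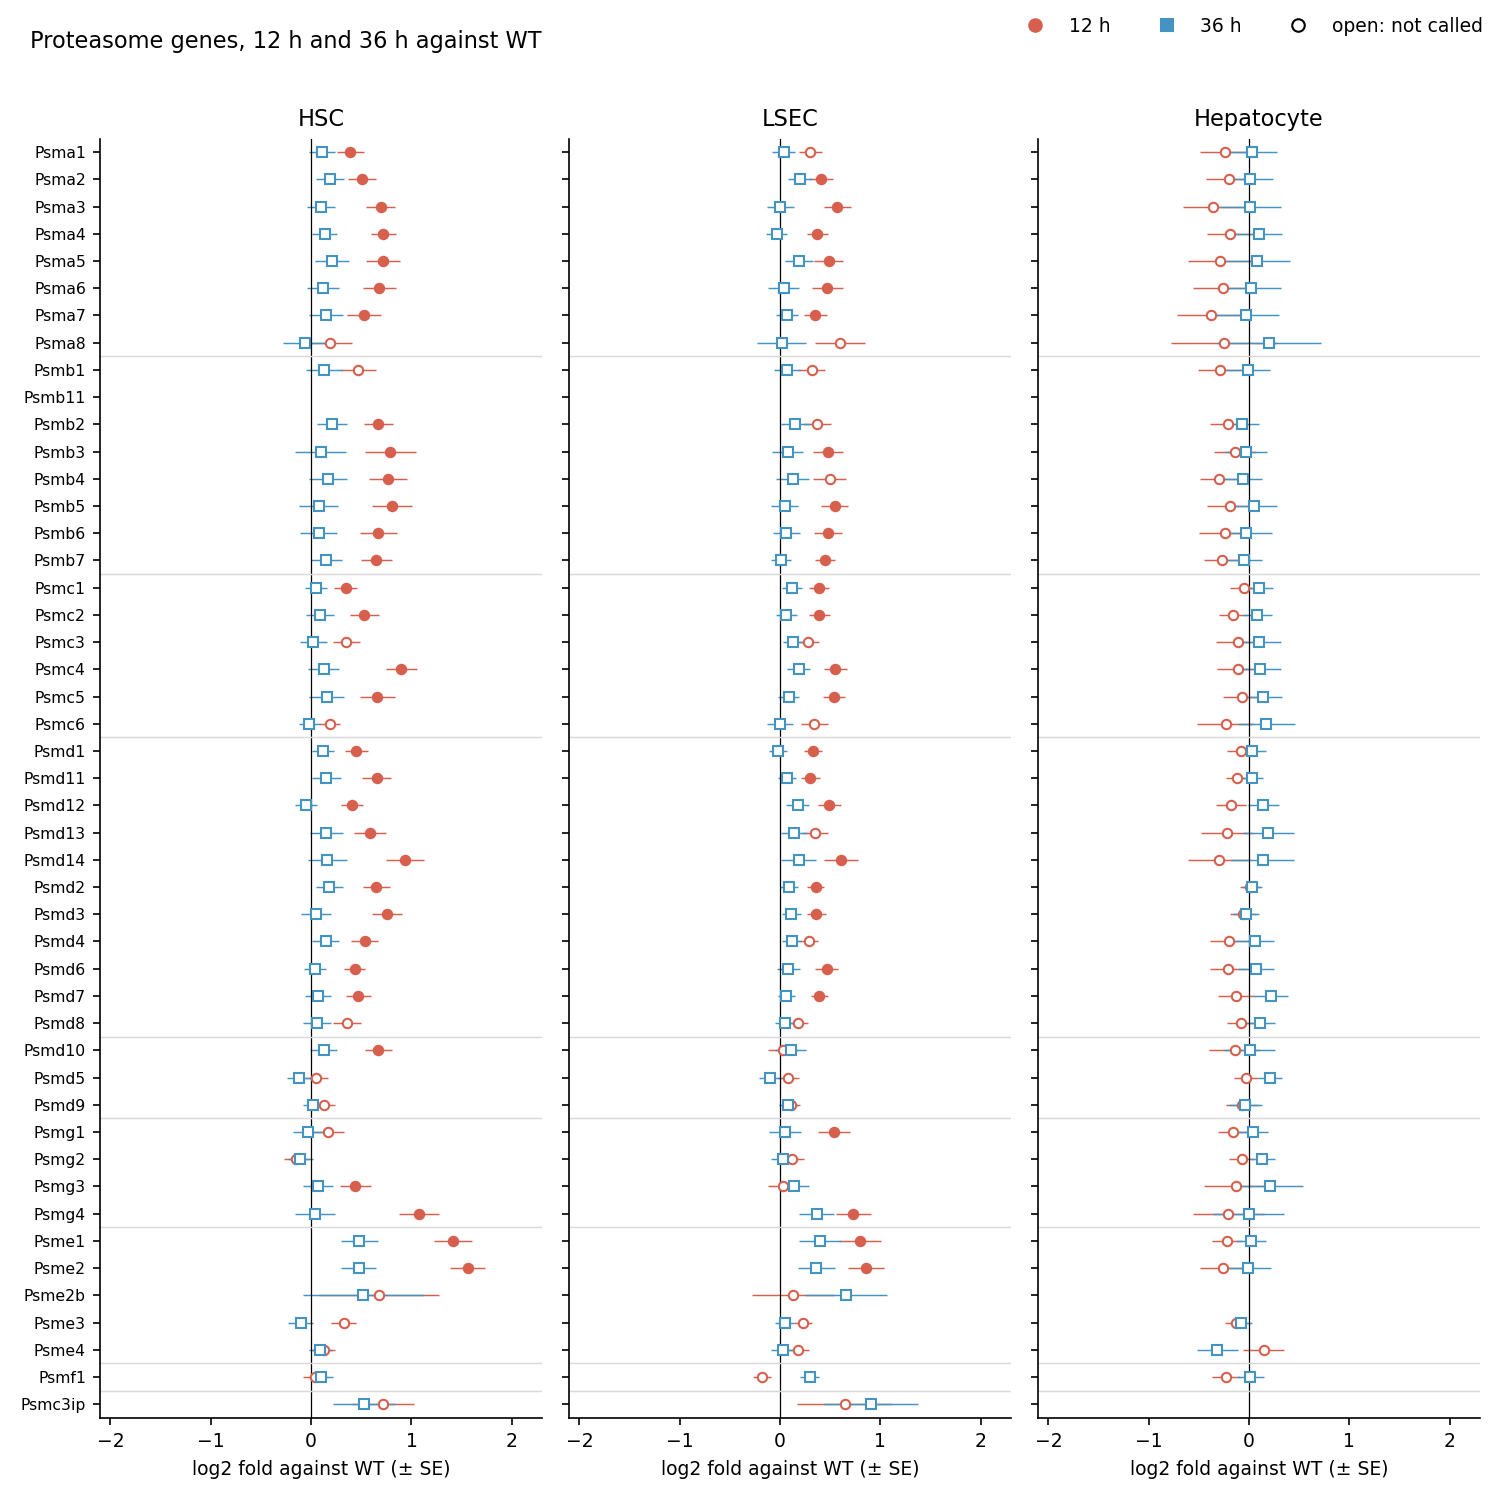
Log2 fold against WT of each proteasome gene at 12 h (circles) and 36 h (squares), with SE bars, in HSC, LSEC and hepatocytes; filled symbols passed an adjusted p under 0.05. Psme1 and Psme2 lie furthest right in HSC at 12 h (1.41 and 1.56), and no symbol at 36 h and none in hepatocytes is filled.

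Markers of other cells differed between WT and 12 h. The 10 Kupffer cell markers in HSC summed to 866, 611, 638 and 554 CPM in WT and 257, 375, 133 and 486 CPM at 12 h, lowest in replicate 3, with Clec4f, Timd4 and Cd163 at 0 in all 12 h libraries. The summed level of 10 monocyte and neutrophil markers in HSC was 230 to 320 CPM in WT and 586, 509, 1078 and 816 CPM at 12 h. Ccr2, S100a8, S100a9 and Retnlg were at 0 in all WT libraries, and of these only S100a8 and Retnlg were at 0 in all 12 h libraries. The sum of these markers was highest in replicate 3, which also had the highest core gene sum and the lowest sum of 10 stellate markers, 43934 CPM against 57903 to 63311 in the other 12 h libraries. Immediate-early and heat shock genes, which can rise during tissue dissociation, summed to 14469, 6740, 5921 and 16720 CPM at 12 h and to 2304 to 8830 CPM in WT, and so were lowest in replicate 3. The part of these in the core gene result was not tested.

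By 36 h the core genes of HSC were back near WT. Their sum was 3287, 3060, 3395 and 4132 CPM, inside or near the WT range except in replicate 4. Against WT edgeR called 0 of 44, with 0 at an unadjusted p under 0.05 and 0 by DESeq2, where 0.142% of all genes were called, and the median log2 fold was 0.10, or 0.01 with 0 called when the libraries that stand apart were left out. The 36 h library left out, replicate 4, had the highest sum of its group, so its removal by itself lowers this median. With all libraries, 37 of 44 core genes had a log2 fold above 0 at 36 h against WT, where 6172 of all 12676 genes did. The comparisons of 12 h and of 36 h with WT share the WT libraries. From 12 h to 36 h 24 of 44 fell and none rose, against 15% of all genes lower, 12.9% higher and 27.9% called, with a median log2 change of -0.42.

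The fall from 12 h to 36 h in HSC again covered both rings and the cap, with 4 of 8 alpha, 5 of 7 beta, 3 of 6 ATPase and 9 of 11 non-ATPase genes. Psme3 fell too, by 0.43 ± 0.13 on the log2 scale (adjusted p = 0.023). Psmc4 fell by 0.78 ± 0.16 (adjusted p = 0.00271) and Psmg4 by 1.03 ± 0.20 (adjusted p = 0.00208), each with all 36 h libraries below all 12 h libraries. The count rests on single libraries, with 11 called without 12 h replicate 3, 10 without 36 h replicate 1 or replicate 2, and 12 without 36 h replicate 3. A fit of the 8 libraries alone called 9, and with both libraries that stand apart left out 24 were called.

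Psme1 and Psme2 stayed between WT and 12 h levels at 36 h. Psme2 read 110.3, 84.2, 119 and 157 CPM and Psme1 131, 96.0, 128 and 166 CPM. Replicate 2 lay within the WT range and the other 3 libraries above it. Neither was called against WT (log2 fold 0.48 ± 0.17, adjusted p = 0.536 for Psme2 and 0.48 ± 0.19, adjusted p = 0.595 for Psme1). Both fell from 12 h, Psme2 by 1.08 ± 0.17 (adjusted p = 0.000689) and Psme1 by 0.93 ± 0.19 (adjusted p = 0.00274).

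In LSEC, too, more core genes rose at 12 h than not. The sum of the core genes was 3407, 3491, 3800.0 and 3863 CPM in WT and 4342, 4299.8, 5569 and 4654 CPM at 12 h, without overlap and again highest in replicate 3. In edgeR's test 24 of 44 were higher and none lower, against 9.74% of all 12286 genes higher, 8.5% lower and 18.2% called, with a median log2 fold of 0.37. The groups did not overlap for 26 of 44, against 12% of all genes wholly higher. The count was 12 without WT replicate 1, 13 without WT replicate 2 and 11 without 12 h replicate 3, and 16 without 12 h replicate 3 and 36 h replicate 4 together.

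In LSEC 6 of 8 alpha, 4 of 7 beta, 4 of 6 ATPase and 8 of 11 non-ATPase genes rose, with Psmg1 and Psmg4 of the core-assembly chaperones. Of the 3 cap-assembly chaperones, the 3 activators and the inhibitor edgeR and DESeq2 called 0, and 1, Psme3, had an unadjusted p under 0.05 (log2 fold 0.23, adjusted p = 0.101). Psmc5, an ATPase, read 84.1, 89.5, 87.1 and 94.8 CPM in WT and 121, 117, 155 and 123 CPM at 12 h, without overlap (0.54 ± 0.11, adjusted p = 0.00387). Psmc4 rose from 96.4 ± 3.33 to 141 ± 18.3 CPM (0.55 ± 0.11, adjusted p = 0.00538) and the lid subunit Psmd7 by a log2 fold of 0.39 (adjusted p = 0.00687). The catalytic genes Psmb5, Psmb6 and Psmb7 rose by log2 folds of 0.54, 0.48 and 0.45, the groups of each apart. Psmd14 and Psmg1 were called although their groups overlapped (0.61 ± 0.17, adjusted p = 0.0259 and 0.54 ± 0.16, adjusted p = 0.0334), and neither was called without the libraries that stand apart (adjusted p = 0.0534 and 0.0846).

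Psme1 in LSEC read 100.02, 111, 114 and 109 CPM in WT and 153, 149.6, 302 and 147.6 CPM at 12 h. Replicate 3 stood far above the other 3, which lay close together and above WT (0.80 ± 0.21, adjusted p = 0.0182). The log2 fold was 0.47 without that library and the adjusted p 0.0511 without WT replicate 1. Psme2 read 74.3, 86.6, 93.9 and 90.7 CPM in WT and 126, 134, 236 and 129.9 CPM at 12 h, the same pattern (0.86 ± 0.18, adjusted p = 0.00616, and 0.59 without 12 h replicate 3). Monocyte and neutrophil markers summed to 15.1 to 20.3 CPM in WT and 19.3, 44.8, 50.7 and 25.8 CPM at 12 h, also highest in replicate 3, and the 9 red cell and platelet markers to 9.40 to 13.9 CPM and 14.3 to 35.1 CPM. Kupffer cell markers summed to 678 to 848 CPM in WT and 609 to 970 CPM at 12 h, with overlap. Of the 10 only Timd4 was at 0 in all 12 h libraries. This sum, here and in HSC, is no measure of Kupffer cell RNA alone. In hepatocytes at 12 h it was 166 to 250 CPM with 8 of the 10 markers at 0 in all libraries. Immediate-early and heat shock genes summed to 5931, 15804, 2811 and 2909 CPM in WT and 19021, 7075, 8326 and 19610.1 CPM at 12 h. The part of these in the LSEC result was not tested.

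**Figure D4:**
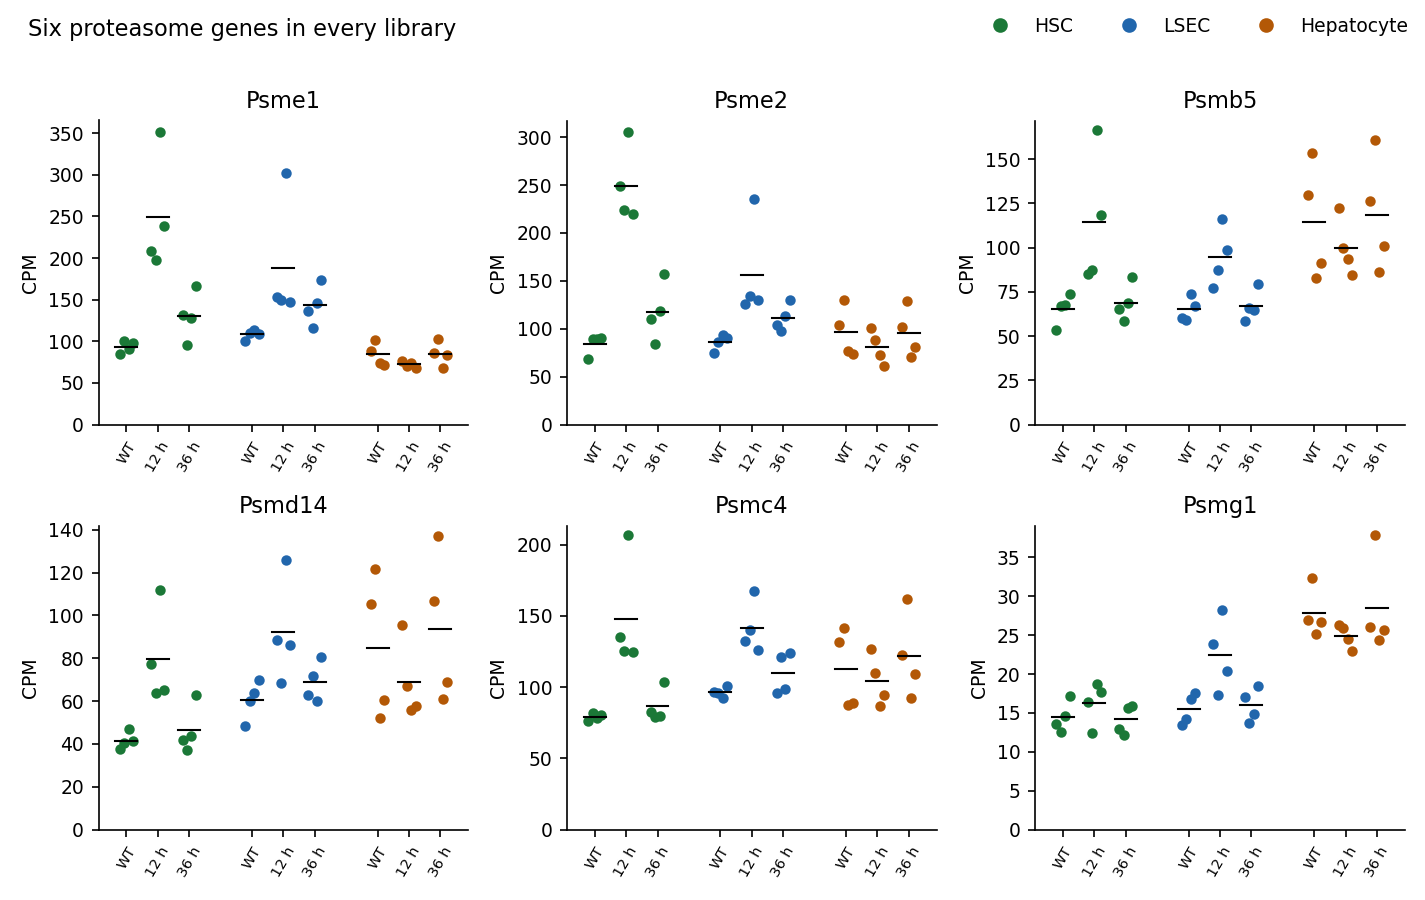
CPM of Psme1, Psme2, Psmb5, Psmd14, Psmc4 and Psmg1 in each of the 36 libraries (points), by cell type and time, on scaling within a cell type. Psme1 and Psme2 separate 12 h from WT in HSC and LSEC, with replicate 3 of LSEC at 302 and 236 CPM, while hepatocyte groups overlap for all 6 genes.

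At 36 h edgeR called 0 of 44 core genes of LSEC against WT, with 1 at an unadjusted p under 0.05 (Psmf1) and 0 by DESeq2, where 0% of all genes were called. Of the 44 core genes, 41 had a log2 fold above 0, where 6270 of all 12286 genes did. The sum was 3757, 3861, 3678 and 4160 CPM and the median log2 fold 0.08, or 0.06 with 0 called without the libraries that stand apart. Here too the 36 h library left out, replicate 4, had the highest sum, and its removal by itself lowers the median. Psme1 read 137, 116, 146 and 174 CPM and Psme2 104, 98.0, 113 and 129.9 CPM, in each case above all WT libraries, but neither passed (0.40, adjusted p = 0.53 and 0.36, adjusted p = 0.518). From 12 h to 36 h 13 core genes fell and 1 rose, against 10.8% of all genes lower, 10.6% higher and 21.3% called, with a median of -0.28. Psmb7 fell by 0.44 ± 0.10 (adjusted p = 0.00734) and Psmc5 by 0.45 ± 0.11 (adjusted p = 0.00887), and Psma3, an alpha-ring gene, and Psmd7 by 0.57 ± 0.14 and 0.33 ± 0.09; Psmd7 was not called without the libraries that stand apart (adjusted p = 0.0506). The count of 14 was 8 without 12 h replicate 3, 7 without 36 h replicate 1, 4 without 36 h replicate 3, 9 on library totals, 8 in a fit of the 8 libraries alone and 11 without the libraries that stand apart.

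The gene that rose was the inhibitor Psmf1. It read 42.2, 35.9, 41.4 and 41.2 CPM in WT, 36.8, 37.4, 36.2 and 31.5 CPM at 12 h and 48.8, 45.9, 49.4 and 52.9 CPM at 36 h. All 36 h libraries lay above all 12 h libraries (0.47 ± 0.09 SE, adjusted p = 0.00321) and above all WT libraries, the latter without passing the test (0.29 ± 0.09, adjusted p = 0.329). At 12 h against WT it had a log2 fold of -0.18 (adjusted p = 0.194). In HSC Psmf1 stood at 40.9 ± 1.57, 42.0 ± 7.06 and 43.8 ± 3.38 CPM over the same times.

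Hepatocytes showed no call among the core genes. Of 42 tested, edgeR called 0 at 12 h and 0 at 36 h against WT, with 0 and 0 at an unadjusted p under 0.05 and 0 and 0 by DESeq2, where 0% of all 11326 genes were called at either time. The median log2 fold was -0.18 at 12 h, with 40 of 42 below 0, and 0.03 at 36 h. From 12 h to 36 h edgeR also called 0 (1 at an unadjusted p under 0.05, 0 by DESeq2, 0% of all genes), with a median of 0.23. Psme1 read 88.7, 102, 74.3 and 71.6 CPM in WT, 76.7, 69.9, 74.5 and 67.6 at 12 h and 86.5, 103, 68.4 and 83.3 at 36 h, with overlap throughout. Psme2 read 104, 130.3, 76.9 and 74.2 CPM in WT, 101, 87.9, 72.3 and 61.1 at 12 h and 102, 129, 70.2 and 81.2 at 36 h. Psmb5 had 114 ± 32.9 CPM in WT and 100.04 ± 16.2 at 12 h, Psmb6 155 ± 46.9 and 131 ± 34.7, and Psmd14 84.9 ± 33.7 and 69.0 ± 18.4. The SD of these genes in WT was larger than the difference at 12 h in each case.

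The spread within hepatocyte groups followed the Malat1 level of the library. In 5 libraries, replicates 1 and 2 of WT and 36 h and replicate 1 of 12 h, Malat1 stood at 242 to 479 CPM and the core genes summed to 4388 to 5469 CPM. In the other 7, with Malat1 at 24.8 to 44.9 CPM, the sum was 3350 to 3878 CPM. The sides did not overlap, and 28 of 42 core genes (66.7%) were higher in all 5 libraries than in all 7, against 12.8% of all genes. The 12 h group held 1 library of the higher side and the other groups 2 each. With a term for the side the median log2 fold at 12 h was -0.03, and within the 2 sides it was -0.15 and 0.03.

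**Figure D5:**
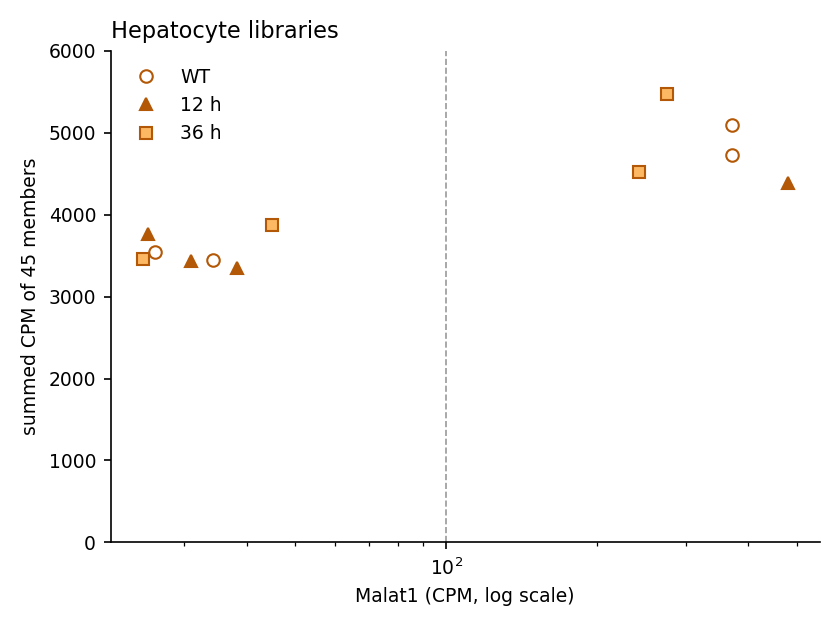
Summed CPM of the 45 core genes against Malat1 (CPM, log axis) in the 12 hepatocyte libraries, by time, with the dashed line at 100 CPM. The 5 libraries right of the line lie at 4388 to 5469 CPM and the 7 left of it at 3350 to 3878.

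The difference between the responses was tested in 1 fit of all 36 libraries. At 12 h the response of HSC minus that of hepatocytes was positive and called for 14 of 44 core genes, against 5.03% of all 14104 genes higher and 9.2% called, with a median of 0.66. Psmd11 differed by 0.72 ± 0.17 (adjusted p = 0.00761), Psmb7 by 0.87 ± 0.21 (adjusted p = 0.00921), Psmb5 by 0.94 ± 0.29 (adjusted p = 0.0329) and Psmd14 by 1.18 ± 0.35 (adjusted p = 0.0308). The count was 2 without HSC 12 h replicate 3, 8 without HSC WT replicate 1, 5 to 8 without hepatocyte WT replicate 1 or 2 or 12 h replicate 3 or 4, and 22 to 24 without hepatocyte WT replicate 3 or 4 or 12 h replicate 1. It was 7 without the libraries that stand apart, where Psmb5 and Psmd14 were not called (adjusted p = 0.113 and 0.0812), and 9 on library totals. Among the hepatocyte libraries, WT replicates 1 and 2 and 12 h replicate 1 lay on the higher Malat1 side. The hepatocyte WT group held 2 libraries of that side and the 12 h group 1, so the sides were not balanced in this difference. Psme2 and Psme1 differed most, by 1.76 ± 0.30 (adjusted p = 0.000493) and 1.58 ± 0.28 (adjusted p = 0.000749), and were called in all 23 alternatives tried.

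LSEC minus hepatocytes, which shares the hepatocyte libraries, gave 1 core gene, Psmd12 (0.62, adjusted p = 0.0469), against 3.57% of all genes. Psme1 (0.97 ± 0.28, adjusted p = 0.0482) and Psme2 (1.06 ± 0.30, adjusted p = 0.0432) were also called. These calls lie at the threshold, and those of Psmd12, Psme1 and Psme2 were lost in 15, 15 and 13 of 23 alternatives. Leaving out single libraries gave 0 to 4 core genes, with 4 without hepatocyte 12 h replicate 1, 3 without LSEC 12 h replicate 2 or hepatocyte WT replicate 3, 2 without hepatocyte WT replicate 4, 1 without hepatocyte 12 h replicate 2 and 0 without any other.

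HSC minus LSEC at 12 h gave 0 of 44 core genes by edgeR (1 at an unadjusted p under 0.05, 0 by DESeq2), against 1.62% of all genes, with a median of 0.17. Psme1 differed by 0.61 ± 0.28 (adjusted p = 0.368) and Psme2 by 0.70 ± 0.30 (adjusted p = 0.318), neither of them called. HSC and LSEC libraries of the same number deviated together at 12 h. A further fit of the libraries of these cell types took those of the same condition and number as a block. In it Psme1 (0.67, adjusted p = 0.00579), Psme2 (0.76, adjusted p = 0.00689) and 1 core gene, Psmd10 (0.65, adjusted p = 0.0423), were called with the larger rise in HSC. Psmd10 read 12.0, 13.8, 13.4 and 13.97 CPM in HSC WT and 22.3, 18.4, 25.3 and 18.7 CPM at 12 h, but 21.4, 19.3, 26.4 and 26.4 CPM in LSEC WT and 21.3, 18.7, 28.3 and 27.2 CPM at 12 h. The HSC groups were apart and the LSEC groups overlapped. At 36 h edgeR called 0 of 44 in each of the 3 pairs, with 0, 1 and 0 at an unadjusted p under 0.05 for HSC minus LSEC, HSC minus hepatocytes and LSEC minus hepatocytes and 0 by DESeq2, where 0%, 0.00709% and 0.00709% of all genes were called.

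Some of the genes that work with the proteasome also rose at 12 h. Of 17 partners, which include assembly factors and receptors outside the naming rule, 5 rose and 1 fell in HSC. The share called, 35.3%, was near the 32% of all genes, with 29.4% higher against 17% and 5.88% lower against 15.1%. Those that rose were led by Pomp, the chaperone that matures the beta ring (0.73 ± 0.12, adjusted p = 0.000649), and the segregase Vcp (0.55, adjusted p = 0.00204). In LSEC 4 of 17 rose (23.5%, against 9.74% of all genes higher), among them the ubiquitin receptor Adrm1 (0.43) and Vcp (0.41). Of 6 genes that supply ubiquitin 3 rose in HSC, among them Uba1 and Rps27a (0.51 and 0.99), where 17% of all genes were higher, and 1 (16.7%) in LSEC, Uba1 (0.30). Of 9 regulators of proteasome genes 4 rose in HSC, with Maff, a small Maf, going from 4.43 ± 1.79 to 32.2 ± 7.44 CPM and Nfe2l1 rising by 0.35 (adjusted p = 0.0464), and 1 (11.1%) in LSEC, Maff (2.71), near the share of all genes there. From 12 h to 36 h 7 partners, 3 ubiquitin genes and 4 regulators fell in HSC, and 6, 1 and 2 in LSEC, with none of these genes called higher by edgeR and 1 partner in HSC called higher by DESeq2; 15% and 10.8% of all genes were lower. Against WT at 36 h and in hepatocytes edgeR and DESeq2 called 0 of the 32 genes of these lists, with at most 2 of any list at an unadjusted p under 0.05.

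The immunoproteasome subunits, which replace the catalytic beta subunits under interferon, divided in HSC at 12 h. Psmb8 rose from 194 ± 23.4 to 415 ± 78.0 CPM (1.09 ± 0.18, adjusted p = 0.000574) and Psmb10 from 158 ± 14.5 to 295 ± 53.4 CPM (0.90 ± 0.17, adjusted p = 0.00145), while Psmb9 had 70.4 ± 7.34 and 86.6 ± 15.6 CPM (0.30, adjusted p = 0.217). In LSEC edgeR called none of the 3 at 12 h (2 at an unadjusted p under 0.05, 2 by DESeq2). From 12 h to 36 h Psmb9 rose in both, by 0.51 in HSC and 0.71 in LSEC, while most core genes called over that interval fell. Against WT at 36 h edgeR called 0 of the 3 in HSC and 0 in LSEC, with all 3 at an unadjusted p under 0.05 in each, and DESeq2 called 3 in HSC and 1 in LSEC, all higher.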

How the data were processed

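Total RNA of liver cells was sequenced in 36 libraries. The authors deposited raw counts per gene symbol for each library; per the submitters' processing notes FastQC 0.11.4, Trimmomatic 0.35, TopHat2 2.1.0 and SAMtools 0.1.18 were used with mm10. For the counting tool, strand setting and annotation the entry is "not given in the sources used here", so reads of overlapping or antisense genes, of pseudogenes and of near copies such as Psme2 and Psme2b may have been split between them. The 5 lines of each table that name no gene were left out; the no-feature line amounted to 4.90 to 9.02% beside the gene counts.

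Counts were tested with edgeR 4.0.16 (R 4.3.3), with TMM scaling, filterByExpr (minimum count 10, minimum total 15), quasi-likelihood tests and Benjamini-Hochberg adjustment over all genes, and called at an adjusted p under 0.05. The fits were 1 per cell type over its 12 libraries, 1 over the 12 WT libraries and 1 over all 36 for differences between responses. Errors of log2 folds are SE from the F statistic, and errors of CPM are SD over 4 libraries. CPM within a cell type use that fit's scaling; the script was tested on simulated data. Alternatives were RLE scaling, library totals, no filter, DESeq2 1.42.0, only the compared groups, the replicate number as a block, and leaving out libraries. For differences between responses the block joined libraries of the same condition and number, in a fit of only the cell types compared. Alternatives on Malat1 and on the libraries that stand apart in the response comparisons were chosen after seeing the data. Lengths are merged exons of GENCODE vM21, gene positions are RefSeq GRCm38.p6, and promoter windows are RefSeq on the same build.

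The genes, role groups and pathway lists were chosen with earlier results of these data known. Named genes are Psme1 to Psme4, Psmf1, Psmb5 to Psmb7, Psmd14, Psmg1 and, per comparison, the 4 called genes of smallest adjusted p in each direction, with the 2 largest differences each way between WT cell types; of the pathway lists up to 3 called genes are named, and 2 of these are not reported here. No pair of libraries of a group held identical values. Replicate numbers are in the labels, which do not say what they share. By the correlation of deviations from group means, same-numbered libraries were taken as paired where every r was over 0.1. Within a cell type this held for HSC 36 h against WT (0.139 to 0.297, other numbers up to 0.268) and hepatocyte 36 h against WT (0.52 to 0.659, others up to 0.658). In those hepatocyte groups replicates 1 and 2 lay on the higher Malat1 side and replicates 3 and 4 on the lower. Between HSC and LSEC it held in WT (0.142 to 0.453, others up to 0.339), at 12 h (0.236 to 0.515, others up to 0.132) and at 36 h (0.166 to 0.287, others up to 0.138). For HSC 36 h against WT and for WT HSC against LSEC only 2 of 4 libraries correlated best with their own number.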

Additional observations from a re-analysis of the deposited data

Results flagged for a closer look

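Of 243 sets of 4 libraries looked at (27 series of values in 9 groups), 20 (8.23%) had 1 library far from the other 3; chance gives about 1 in 20. In HSC at 12 h replicate 3 stood far above the others for Psma3 (276 CPM), Psmc4 (207 CPM) and Psmg4 (15.2 CPM). In LSEC at 12 h replicate 3 stood far above for Psme1 (302 CPM) and Psme2 (236 CPM). In HSC at 36 h replicate 4 stood far above for Psmc4 (104 CPM), Psmd11 (75.4 CPM), Psmd7 (157 CPM), Psmf1 (48.9 CPM) and Psmc3ip (2.14 CPM), and in LSEC at 36 h for Psma4 (96.8 CPM) and Psmb6 (130.3 CPM). Replicate 1 stood far below the others for Psme4 in HSC at 36 h (27.1 CPM), for Psmc5 (71.0 CPM) and Psme2 (68.9 CPM) in HSC WT and for Psma8 in LSEC WT (4.66 CPM), and replicate 2 for Psmf1 in LSEC WT (35.9 CPM). In hepatocytes replicate 1 stood above at 12 h for Psma3 (252 CPM) and replicate 2 at 36 h for Psmg1 (37.8 CPM) and Psmc3ip (0.541 CPM).

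For the genes given here the 12 h response of HSC or LSEC differed from that of hepatocytes by the interaction test. HSC minus LSEC gave 0 of 44 core genes in the fit without a block. HSC minus hepatocytes gave log2 differences of 0.94 for Psmb5, 0.87 for Psmb7, 0.72 for Psmd11, 1.18 for Psmd14, 1.58 for Psme1 and 1.76 for Psme2. LSEC minus hepatocytes gave 0.62 for Psmd12, 0.97 for Psme1 and 1.06 for Psme2. Without the libraries that stand apart, Psmb5 and Psmd14 were not called by edgeR for HSC (adjusted p = 0.113 and 0.0812). Nor were Psmd12, Psme1 and Psme2 for LSEC (adjusted p = 0.095, 0.058 and 0.094).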

How the results depend on the processing

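Among the genes named, a called direction reversed on library totals in WT cells against hepatocytes: Psme1 (0.14 for HSC, 0.35 for LSEC), Psme3 (0.27, 0.29) and Psmf1 (0.21, 0.18); the LSEC count there was 21. In fits of only the 2 groups compared, the core genes called were 9 for HSC 36 h against 12 h, 8 for LSEC 36 h against 12 h and 16 for WT HSC against LSEC, and library totals gave 9 for LSEC 36 h against 12 h. For HSC minus hepatocytes at 12 h library totals gave 9, DESeq2 22 and the fit without 12 h replicate 3 and 36 h replicate 4 gave 7. For LSEC minus hepatocytes at 12 h RLE scaling gave 2, library totals 0, no filter 0, DESeq2 3, a Malat1 term 2 and the fit without those libraries 0. In LSEC that fit gave 16 at 12 h against WT and 11 at 36 h against 12 h. The cause of these shifts was not tested.

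Leaving out 1 library at a time gave 25 to 33 for HSC 12 h against WT, 10 to 30 for HSC 36 h against 12 h, 11 to 27 for LSEC 12 h against WT, 4 to 19 for LSEC 36 h against 12 h, 2 to 24 for HSC minus hepatocytes and 0 to 4 for LSEC minus hepatocytes at 12 h.

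With the replicate number as a block, taken within a condition for differences between responses, the paired comparison of HSC minus LSEC at 12 h gave 1 core gene (Psmd10). The block changed no count of the other paired comparisons by over 1.5 times (WT HSC against LSEC 4). Elsewhere libraries share only a number, and the block gave 32 and 24 for HSC, 23 and 10 for LSEC, and 0 for HSC and 0 for LSEC minus hepatocytes. With 4 libraries a group, differences that were small against the spread between libraries were not detectable.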
